A study of Mus musculus with 2 samples.

Results

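The miR-200 family and the cluster of miR-183, miR-96 and miR-182 are groups of related miRNAs with regionally restricted expression, the first in the olfactory system and the second in sensory organs, and both were examined here in whole mouse brain. The listed members were mmu-miR-200a, mmu-miR-200b, mmu-miR-200c, mmu-miR-141 and mmu-miR-429 for the family and mmu-miR-183, mmu-miR-96 and mmu-miR-182 for the cluster (written below without the mouse prefix). Of these 8 names, 7 are in the study's supplementary list of known miRNAs, which holds 405 names without a star, and miR-141 is not. Each name was tied to the distinct sequence (tag) that carries both of its listed read counts and equals its RefSeq mature sequence, and all tags with the same first 18 nucleotides were then added. Several tags held each pair of counts (from 2 tags for miR-182 to 21685 for miR-200c), so the RefSeq sequence decided every assignment.

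The small RNAs came from whole brains of male mice of the inbred strain C57BL/6J, with no treatment or allele named. There was 1 young library (5 months) and 1 old library (24 to 25 months), and each combined the cDNA of a pair of mice. The young library held 4523267 genome-aligned reads and the old library 6658732, so that 1 old read counts for less than 1 young read by a depth factor of 1.47. With 1 library per age the error between replicates could not be estimated. Intervals and p-values below cover counting error alone, the reads being PCR copies rather than separate molecules, and they compare these 2 libraries and not the ages. The share of reads with an undetermined base was 4.57% in the young library and 1.07% in the old one.

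MiRNAs guide the silencing complex to mRNAs mainly through their seed, bases 2 to 8 of the mature strand. The miR-200 family is best known for keeping cells epithelial by repressing the transcription factors Zeb1 and Zeb2, and in the nervous system it is abundant in the olfactory epithelium and bulb. The miR-183 cluster is made from a single primary transcript and is abundant in photoreceptors, inner ear hair cells, sensory ganglia and the pineal gland.

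The mature sequences are shown because the groups of shared seeds define the family and because near-identical members could exchange reads. They are the RefSeq mature sequences, 5′ to 3′, with the seed in capitals.
miR-200b: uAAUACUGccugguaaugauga
miR-200c: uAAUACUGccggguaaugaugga
miR-429: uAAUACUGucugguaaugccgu
miR-200a: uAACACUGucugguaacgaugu
miR-141: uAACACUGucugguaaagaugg
miR-183: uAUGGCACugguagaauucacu
miR-96: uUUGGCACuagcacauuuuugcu
miR-182: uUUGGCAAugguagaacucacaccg
The first group (miR-200b, miR-200c and miR-429) shares the seed AAUACUG, and miR-200a and miR-141 share AACACUG. The members of the cluster have 3 different seeds, which have the bases UGGCA in common. Over the first 18 nucleotides, counted from 1 at the 5′ end and with the base of the first-named miRNA written first, miR-200b and miR-200c differ by U11G, miR-200b and miR-429 by C9U, and miR-200a and miR-141 by C17A. Each of the 8 starts nevertheless had 1 perfect match in the genome (NCBIM37, the assembly called mm9).

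The genes lie at 3 places, all on the minus strand of mm9. Mir200b, Mir200a and Mir429 lie on chromosome 4 from 155428014 to 155429859, within 1846 bp. All 3 are in an intron of the protein-coding gene Ttll10 and overlap the noncoding transcript Gm13648 on the same strand, Mir429 in its exon and the other two in its intron. Mir200c and Mir141 lie on chromosome 6 from 124667932 to 124668408, in an intron of the noncoding transcript Gm15884. Mir183, Mir96 and Mir182 lie on chromosome 6 from 30115918 to 30119737 in no annotated gene, and the nearest protein-coding gene, Nrf1, is on the other strand and 12460 bp or more away.

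Both groups were minor components of the brain miRNAs. All counted members of the family together had 152 young and 140 old reads, or 33.6 and 21.03 on the reads-per-million scale (RPM). Those of the cluster had 215 young and 257 old reads, or 47.5 and 38.6 RPM. For comparison, let-7g, which had the most reads of the 330 distinct starts of known miRNAs, had 137204 RPM in the young and 167750 in the old library. A read covers a whole miRNA, so levels were not divided by length.

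In each group a single member made up most of the reads. In the cluster this was miR-182, with 184 young and 205 old reads, or 40.7 RPM (95% exact interval 35.01 to 47.0) and 30.8 (26.7 to 35.3). It made up 85.6% of the cluster's young reads and 79.8% of its old reads. In the family it was miR-200a, with 121 young and 101 old reads, or 26.8 RPM (22.2 to 32.0) and 15.2 (12.4 to 18.4). It made up 79.6% of the family's young reads and 72.1% of its old reads. The most abundant members therefore stood at ranks 158 and 177 of the 330 starts in the young library and at ranks 152 and 183 in the old library.

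The other members had between 1 and 43 reads per library. MiR-183 had 18 young and 43 old reads, or 3.98 and 6.46 RPM. MiR-200b had 13 young and 27 old reads, or 2.87 and 4.05 RPM. These were the only members with a higher normalised count in the old library. MiR-429 had 16 young and 11 old reads, or 3.54 and 1.65 RPM, and miR-96 had 13 and 9 reads, or 2.87 and 1.35 RPM. MiR-200c had 2 young reads and 1 old read.

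In the young library, the intervals of miR-182 and miR-200a did not overlap, and both lay above those of all other members. The levels of miR-183, miR-429, miR-200b and miR-96, which ran from 2.87 to 3.98 RPM, could not be told apart, and the interval of miR-200c overlapped those of miR-200b and miR-96 and lay below those of miR-429 and miR-183. In the old library the order was miR-182, miR-200a, miR-183, miR-200b, miR-429, miR-96 and miR-200c. There the first 3 were separated by their intervals, while each later neighbour overlapped the one before it.

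**Figure D1:**
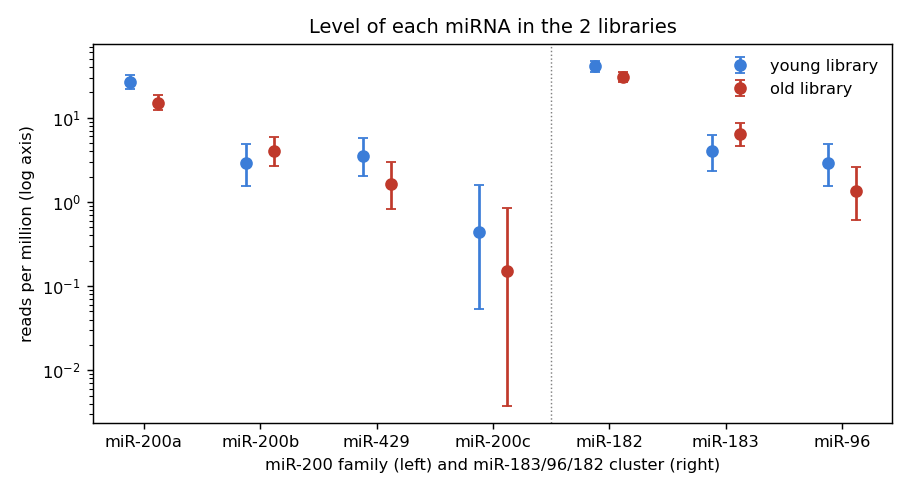
RPM (log axis) of the 7 counted miRNAs in the young (blue) and old (red) library, with 95% exact counting intervals. MiR-182 and miR-200a lie well above the rest in both libraries, and miR-200c, with 2 and 1 reads, is lowest.

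The second locus of the family had almost no reads in either library. No tag began with the first 18 nucleotides of miR-141, in 4523267 young and 6658732 old reads, which allows up to 0.663 and 0.451 RPM when 3 reads are taken as the limit for a count of 0. Its neighbour miR-200c had 3 reads with its first 18 nucleotides, besides 1 young read that began 2 nucleotides further on. Of these 3 reads, 2 matched the miR-200c precursor over their whole length and 1 had an added A. The locus of miR-200a, miR-200b and miR-429 thus held nearly all reads of the family.

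The passenger strands were close to the limit of detection. The other arm of miR-200b had 1 young and 2 old reads, or 6.00% of the reads of both its arms. The other arm of miR-183 had 2 young reads and none in the old library. No read of the other arm was found for miR-200a, miR-200c, miR-141, miR-429, miR-96 or miR-182. The strand named in the study's list was thus the one with the most reads for every member that was detected.

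The question of the study was how miRNA levels differ between young and old brains. MiR-200a had a lower normalised count in the old library, its log2 ratio (old/young) being -0.82 (95% exact counting interval -1.21 to -0.43) when scaled by total reads. The adjusted p was 3.67e-05 under DEGseq's random sampling model for MA plots, with Benjamini-Hochberg adjustment over the 261 known miRNAs that had at least 10 reads in a library. MiR-182 was also lower, with a log2 ratio of -0.40 (-0.70 to -0.11) and an adjusted p of 0.00779. Counting the RefSeq tag alone moved the log2 ratio of miR-200a to -1.42 and that of miR-182 to -0.62, and a linear correction for GC content moved that of miR-182 to -0.71. In whole brain, fewer cells of a type and less RNA per cell cannot be told apart. These 2 of the 6 members with enough reads passed the test as lower, and none passed as higher. Among all 261 known miRNAs, 67.8% passed as lower and 9.58% as higher.

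The less abundant members did not pass the test in either direction. The log2 ratio of miR-429 was -1.10 (-2.35 to 0.10, adjusted p = 0.0605) and that of miR-96 was -1.09 (-2.49 to 0.25, adjusted p = 0.0954), both in the random sampling model. For miR-183 it was 0.70 (-0.13 to 1.58, adjusted p = 0.0862) and for miR-200b it was 0.50 (-0.51 to 1.57, adjusted p = 0.319). The GC correction lowered these values to 0.39 for miR-183 and 0.19 for miR-200b. At these depths a 2-fold difference lies within the counting interval. The log2 ratios of miR-429 and miR-96, 2 of the 6 members, were below -1, as were those of 31.4% of the known miRNAs, and no member was at least 2-fold higher, as 1.92% of the known miRNAs were. MiR-200c had too few reads for a test.

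These values stand against a general shift between the libraries. The median log2 ratio of the 261 known miRNAs was -0.74, and 81.6% of them were below 0. The median of the 6 members was -0.61, with 4 below 0. Measured from the median miRNA, miR-200a differed by only -0.08, miR-429 by -0.36 and miR-96 by -0.35. MiR-182 was 0.34 above the median miRNA, miR-200b 1.24 and miR-183 1.44. Of the known miRNAs, 251 of the 261 had a lower log2 ratio than miR-183 and 241 had a lower one than miR-200b.

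**Figure D2:**
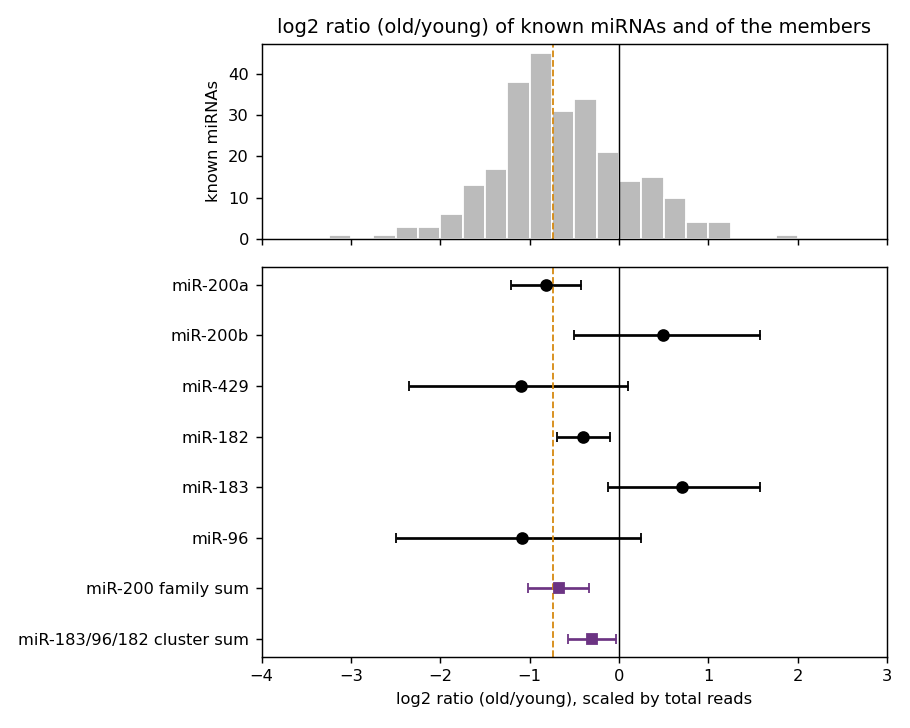
Top, number of the 261 known miRNAs by log2 ratio (old/young); bottom, the 6 tested members and the sums of both groups with 95% exact counting intervals. The solid line is 0 and the dashed line the median of the known miRNAs at -0.74. MiR-200a lies on the median, and miR-183 and miR-200b lie to its right with wide intervals.

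Because the direction depends on the scaling, the ratios are also given under other factors. With TMM factors from edgeR or with DESeq2's size factors, both computed from the known miRNAs, every log2 ratio rises by 0.74. MiR-200a then had -0.08 under each of them, with adjusted p-values of 0.726 and 0.736. MiR-182 then turned to 0.34 under each, with adjusted p-values of 0.0340 and 0.0327. MiR-183 had 1.44 under each, with adjusted p-values of 0.000405 and 0.000393, and miR-200b had 1.23 and 1.24, with an adjusted p of 0.0145 and 0.0144. When the let-7 starts were left out of the totals, the shift was 0.37 and the log2 ratio of miR-183 was 1.07 (adjusted p = 0.00929), while that of miR-182 was -0.03 (adjusted p = 0.852). No scaling changes the order of the members. The DESeq2 factors place the median known miRNA at 0 by construction, and the TMM factors placed it at -0.003. The log2 ratios under these factors therefore nearly repeat the distances from the median miRNA given above and are no separate support. The calls of miR-183 and miR-200b as higher under other scalings rest on counting error, with no biological variation assumed. The call of miR-200a and miR-182 also ended when an assumed biological coefficient of variation of 0.2 was added in edgeR's exact test, with adjusted p-values of 0.181 and 0.511.

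**Figure D3:**
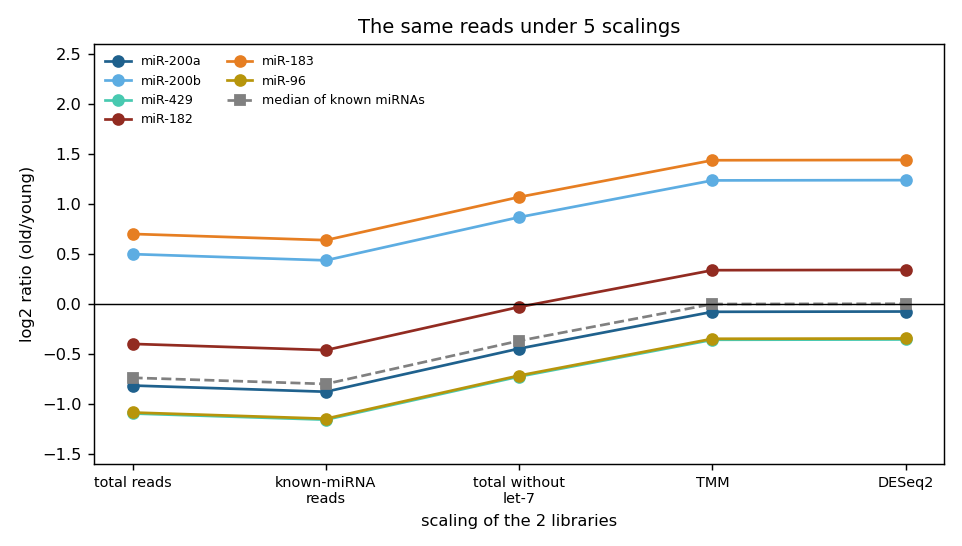
Log2 ratio (old/young) of the 6 tested members and of the median known miRNA (dashed) under 5 scalings of the libraries. The lines are parallel; miR-183 and miR-200b are above 0 and miR-200a, miR-429 and miR-96 below 0 under all 5, while miR-182 crosses 0.

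The ratio between members does not depend on the scaling, so members of the same primary transcript can be set beside each other. Within the cluster, the log2 ratio of miR-183 was higher than that of miR-182 by 1.10 (95% exact interval 0.22 to 2.03) and higher than that of miR-96 by 1.79 (0.16 to 3.43). That of miR-96 differed from that of miR-182 by -0.69 (-2.13 to 0.69). Within the family, the log2 ratio of miR-200a was below that of miR-200b by a difference of -1.32 (-2.47 to -0.22), and it differed from that of miR-429 by 0.28 (-0.99 to 1.60). The difference between miR-200b and miR-429 was 1.60 (-0.03 to 3.24). Of the 15 pairs among the 6 members, 5 had an interval that left out 0, and 4 of these 5 involved miR-183. The intervals are not adjusted for the number of pairs.

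Summed over members and scaled by total reads, both groups had lower counts in the old library. The log2 ratio was -0.68 (95% exact counting interval -1.02 to -0.34) for the family and -0.30 (-0.57 to -0.03) for the cluster. Neither direction held under every scaling: with TMM factors the family sum was at 0.061 and the cluster sum at 0.44, with DESeq2's size factors they were at 0.064 and 0.44, and without let-7 the cluster sum was at 0.069 and the family sum at -0.31. The GC correction gave the cluster sum -0.61. The difference between them was 0.38 (-0.06 to 0.81), and since the interval holds 0 the groups could not be told apart at this depth. The cluster had 1.41 reads for each read of the family in the young library and 1.84 in the old library. Each sum mostly repeats its most abundant member. Without miR-182 the cluster sum was 31 young and 52 old reads, at a log2 ratio of 0.19 (-0.48 to 0.88). Without miR-200a the family sum was 31 and 39 reads, at -0.23 (-0.94 to 0.50). The difference was then 0.42 (-0.59 to 1.42).

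The known miRNAs closest to the family sum in log2 ratio, among the 165 with at least as many reads, were miR-136 (3883 young and 3581 old reads), miR-122 (885 and 818) and miR-338-3p (1087 and 979), at -0.67, -0.67 and -0.71. Those closest to the cluster sum, among 147, were miR-27a (2967 and 3553 reads), miR-222 (9538 and 11478) and miR-152 (8185 and 9972), at -0.30, -0.29 and -0.27. With 2 libraries, likeness rests on a single ratio.

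The RefSeq form made up a minor part of the reads of miR-200a and miR-200b. The most-read tag of miR-200a was 1 nucleotide longer than the RefSeq form. The tags below are shown 5′ to 3′ as deposited, with bases beyond the RefSeq 3′ end in capitals.
miR-200a, RefSeq form: taacactgtctggtaacgatgt
miR-200a, templated extension: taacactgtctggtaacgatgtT
miR-200a, extension and added T: taacactgtctggtaacgatgtTT
miR-200a, extension and added A: taacactgtctggtaacgatgtTA
miR-200b, RefSeq form: taatactgcctggtaatgatga
miR-200b, templated extension: taatactgcctggtaatgatgaC
miR-200b, extension and added A: taatactgcctggtaatgatgaCA
The RefSeq form of miR-200a had 20 young and 11 old reads, while the form with the templated T had 71 and 57. The added T and added A forms had 12 and 15, and 8 and 6 reads. For miR-200b the 3 forms had 2 and 5, 4 and 5, and 3 and 6 reads in the order shown. For miR-429 the most-read tag was 1 nucleotide shorter than the RefSeq form, with 11 young and 4 old reads against 5 and 4.

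In the cluster the RefSeq form was the most-read tag of every member. It had 73 young and 70 old reads for miR-182, 11 and 27 for miR-183, and 12 and 8 for miR-96. Among the 261 known miRNAs, whose counted tag was in part assigned by its 2 counts alone and not by the RefSeq sequence, the counted tag was the most-read one of its start for 57.1%. Over both libraries, the counted tag, which is the RefSeq form for all members, held 14.0% of the reads with its start for miR-200a, 17.5% for miR-200b, 33.3% for miR-429, 36.8% for miR-182, 62.3% for miR-183 and 90.9% for miR-96. The median over the known miRNAs was 34.0%. In none of the 7 miRNAs did a difference of this share between the libraries pass Fisher's exact test (two-sided, unadjusted p from 0.249 to 1). For miR-200a it was 16.5% of young reads (95% exact interval 10.4 to 24.4%) and 10.9% of old reads (5.56 to 18.7%).

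**Figure D4:**
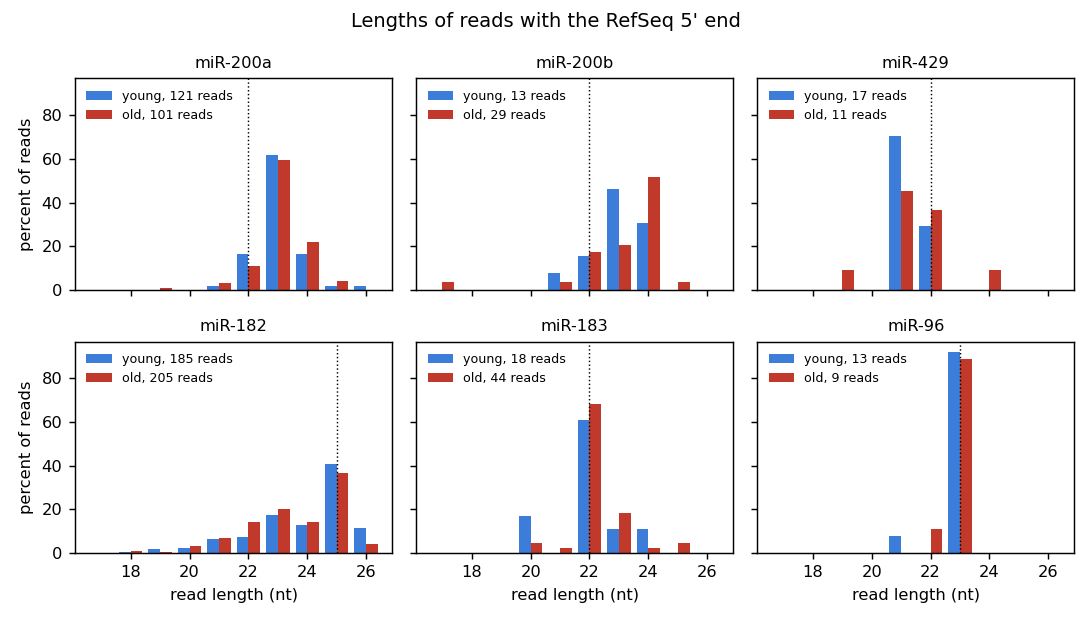
Length in nucleotides of the reads that begin at the RefSeq 5′ end, as percent of those reads in the young (blue) and old (red) library; the dotted line is the RefSeq length and each legend gives the number of reads. MiR-200a and miR-200b are mostly longer than the RefSeq form, miR-429 mostly 1 nucleotide shorter, and miR-182 spreads over shorter lengths.

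The mean length of miR-200a reads was 23.0 nucleotides in the young and 23.1 in the old library, against a RefSeq length of 22. That of miR-182 was 23.9 (SD over reads 1.69) and 23.6 (1.63), against a RefSeq length of 25. No member read was longer than 26 nucleotides, which left little room to see longer forms of miR-182. Within that limit, the 3′ end of miR-182 ran mainly backwards along the precursor, as these templated tags show.
miR-182, RefSeq form: tttggcaatggtagaactcacaccg
miR-182, shorter by 1: tttggcaatggtagaactcacacc
miR-182, shorter by 2: tttggcaatggtagaactcacac
miR-182, shorter by 3: tttggcaatggtagaactcaca
The shorter forms had 23 young and 25 old reads, 30 and 35, and 11 and 27.

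Tails of up to 3 bases that do not follow the genome were most frequent in miR-200a and miR-200b among the members with at least 10 reads in a library. Of the reads at the RefSeq 5′ end, 25.7% of those of miR-200a (95% exact interval 20.1 to 31.9%) and 42.9% of those of miR-200b (27.7 to 59.0%) ended in such a tail. The share was 9.23% for miR-182 (6.55 to 12.6%), 9.68% for miR-183 (3.63 to 19.9%), 4.55% for miR-96 (0.115 to 22.8%) and 3.57% for miR-429 (0.0904 to 18.3%). Among the 57 tailed reads of miR-200a, 31 had tails of T alone (12 young and 19 old) and 24 had tails of A alone (15 young and 9 old). Among the 36 of miR-182, these were 13 and 19. The shares of miR-200a were 23.1% in the young and 28.7% in the old library, and for no member did the difference between the libraries pass Fisher's exact test (two-sided, unadjusted p from 0.220 to 1). An added base equal to the next genomic base cannot be told from a templated one, and miR-200a is followed by a T in mm9. A mismatch within the last 3 bases also counted as a tail. The RefSeq form of miR-182 has 25 nucleotides and no member read was longer than 26, so it had less room for a tail. The shares are therefore not like for like between members, and the share over all known miRNAs was not computed.

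MiR-183 had the largest share of reads with another 5′ end among the members with at least 10 reads in a library, 35.4% over both libraries (95% exact interval 25.9 to 45.8%). A form that begins 1 nucleotide further on accounted for all 34 of these reads, and this moves the seed by 1 base. The capitals mark the seed of each tag.
miR-183, RefSeq 5′ end: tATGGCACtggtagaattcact
miR-183, 1 nucleotide on: aTGGCACTggtagaattcact
miR-96, RefSeq 5′ end: tTTGGCACtagcacatttttgct
miR-96, 1 nucleotide on: tTGGCACTagcacatttttgct
The shifted tag of miR-183 had 6 young and 14 old reads. Over all lengths, 13 of 31 young reads of the strand (41.9%, 95% exact interval 24.5 to 60.9%) and 21 of 65 old reads (32.3%, 21.2 to 45.1%) began at the shifted position. The difference between the libraries did not pass Fisher's exact test (two-sided, unadjusted p = 0.371). The shifted seed, UGGCACU, is the one that miR-96 has when it is shifted by the same step, which was seen in 2 young reads and no old read.

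For miR-182, only 1 of 186 young reads (0.538%, 0.0136 to 2.96%) and 1 of 206 old reads (0.485%, 0.0123 to 2.67%) had another 5′ end. Both of these intervals lie below those of miR-183, in each library. Over both libraries, reads with another 5′ end made up 5.13% for miR-200a (2.68 to 8.79%), 10.6% for miR-200b (3.55 to 23.1%), 3 of 25 reads for miR-96 (2.55 to 31.2%) and none of 28 reads for miR-429 (up to 12.3%). Of these intervals only that of miR-96 overlaps the one of miR-183. Over the 261 known miRNAs the median share of reads beginning 1 nucleotide on was 0.286%, and 5 of them had a higher share than miR-183. Adding all 5′ ends of the strand, a count chosen after the data had been seen, gave miR-183 31 and 65 reads and moved its log2 ratio from 0.70 to 0.51.

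**Figure D5:**
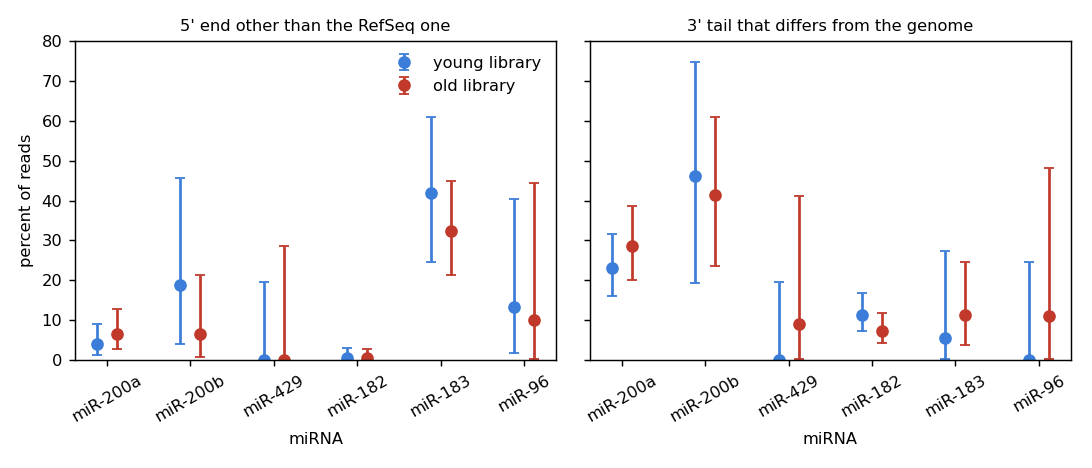
Percent of reads whose 5′ end is not the RefSeq one (left) and percent of reads at the RefSeq 5′ end with a tail that differs from the genome (right), with 95% exact counting intervals, in the young (blue) and old (red) library. On the left miR-183 stands above miR-182 in both libraries, and on the right miR-200a and miR-200b have the highest shares.

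Close sequences were checked for reads that could belong to another member. Tags 1 substitution away from a start, other than the start of another member, held 12 young and 32 old reads near miR-182, 3 and 5 near miR-200a, and 2 and 9 near miR-183. These reads were not added to the counts, and neither the log2 ratios nor the calls with them were computed. Of the 11 old reads counted for miR-429, 2 had tags whose 3′ ends did not follow the miR-429 precursor. The tag of 1 of these reads is the miR-200b form with extension and added A, except for a T at base 9. Whether these reads came from miR-200b was not tested. Counting only tags that lie without a mismatch in a precursor moved the log2 ratio of miR-429 to -1.39, with an adjusted p of 0.0235 in the random sampling model, so that it then passed the test. Tags with 1 undetermined base in a member's start added 17 young reads and 1 old read over all members. With these reads added, miR-429 had a log2 ratio of -1.27 (adjusted p = 0.0247) and miR-182 one of -0.46 (adjusted p = 0.00217).

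Lists of miRNAs known from other cell types were counted the same way and scaled by total reads. Of 6 epithelial miRNAs, 2 were lower, 1 was higher and 1 was not called among the 4 tested, with a median log2 ratio of -0.14 and a summed level of 2454 young and 1699 old RPM, of which miR-192, an intestinal and liver miRNA, had 2277 and 1514. The 2 lower ones were miR-192 (log2 ratio -0.59) and miR-194, with 309 young and 379 old reads (-0.26). MiR-203, an epidermal miRNA, had 100 young and 146 old reads (-0.01), and miR-31 had 393 and 708 (0.29). MiR-215 had 1 young and 6 old reads and was not tested. MiR-205, a marker of stratified epithelium, had no read in either library.

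All 3 neuroendocrine miRNAs were lower, their summed level being 3841 young and 2518 old RPM. MiR-375, typical of pituitary and other endocrine cells, had 207 young and 61 old reads (log2 ratio -2.32), while miR-7a and miR-7b had log2 ratios of -0.45 and -1.004. Of 7 miRNAs of choroid plexus and ependyma, 4 of the 6 tested were lower, none was higher and 2 were not called (median -0.80, summed level 9331 and 7282 RPM). The lowest were miR-204 with 304 young and 148 old reads (-1.596) and miR-1298 with 6645 and 3372 (-1.54), and miR-211 had no read. Most of the summed level was miR-34c, with 7086 young and 6244 old RPM (-0.18). The log2 ratios of the remaining tested members were -1.09 for miR-449a, -0.50 for miR-448-3p and -0.22 for miR-34b-5p. All 4 neuronal miRNAs, miR-124, miR-9, miR-128 and miR-138, were lower, with log2 ratios from -1.21 to -0.56 and a summed level of 74185 and 37656 RPM, so the brain markers were far more abundant than either group. All calls of these lists are from the random sampling model at an adjusted p below 0.05, scaled by total reads. They are to be read against the 67.8% of known miRNAs that were lower. With TMM or DESeq2 factors every log2 ratio rises by 0.74. Those of miR-192, miR-194, miR-203, miR-7a, miR-34b-5p, miR-34c, miR-448-3p and miR-9 then turn above 0. Those of miR-375, miR-7b, miR-204, miR-449a, miR-1298, miR-124, miR-128 and miR-138 stay below 0. Calls of the lists under these factors are not given. The part of these tissues in the ratios of the family and the cluster was not tested.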

How the data were processed

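Small RNA reads of 1 young and 1 old brain library were used. The authors removed the 3′ adapter, aligned reads to mm9 with SOAP (version not given in the sources used here) and collapsed identical sequences, and the deposited values are raw read counts per distinct sequence without normalization. No column of another sample was used.

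Names of the study's list without a star were assigned to tags by their 2 counts, alone where a single tag held them (173 names) or together with the RefSeq mature sequence (167), and 65 were left out. This gave 330 distinct starts of 18 nucleotides, 261 with at least 10 reads in a library. RefSeq sequences come from a table of build GRCm38.p6, whose positions were not used, and positions are from an mm9 annotation. Equality with the listed counts follows from the rule. Members and lists were chosen with earlier results of these data known.

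For ratios, counts of 0 became 0.5. P-values follow the formula of the random sampling model of DEGseq, as in the study, unless another test is named. edgeR's quasi-likelihood test has no residual degrees of freedom with 1 library per age. Intervals are exact (Clopper-Pearson, or conditional for differences between ratios). Read ends were compared with mm9 precursors, 10 nucleotides added at each side, by the longest matching stretch from the 5′ end of at least 17 nucleotides, with tails of up to 3 bases. The statistics were tested on simulated Poisson counts with neither biological variation nor a general shift between the libraries, so that test covers counting error alone. The genes named are the members, their other arms, the lists, the 3 nearest to each sum in log2 ratio and the miRNA with the most reads. Alternatives were other scalings, the counted tag alone, starts of 16 nucleotides, tags without mismatch, a GC correction, other read minimums, an exact binomial test, assumed biological coefficients of variation and sums without the most abundant member. Counting with undetermined bases, with other 5′ ends and with totals without undetermined bases was chosen after seeing the data. Python 3.11.15, numpy 2.4.6, scipy 1.17.1, R 4.3.3, edgeR 4.0.16 and DESeq2 1.42.0 were used.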

Additional observations from a re-analysis of the deposited data

How the results depend on the processing

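The scaling of the libraries mattered most. The log2 ratio of the family sum was -0.31 without the let-7 starts in the totals, 0.061 under TMM and 0.064 under DESeq2, and that of the cluster sum was 0.069, 0.44 and 0.44. MiR-182 turned to 0.34 under both TMM and DESeq2. The known miRNAs at least 2-fold lower fell from 82 to 35 without let-7, 15 under TMM and 15 under DESeq2. Those at least 2-fold higher numbered 5, against 16, 33 and 33 under these scalings, 3 with known-miRNA reads, with tags without mismatch, with the GC correction, with totals without undetermined bases and with a minimum of 50 reads, and 11 with no minimum. The GC correction (slope -0.33 per 10 percentage points over 261 miRNAs) gave the cluster sum -0.61. Without its most abundant member the cluster sum was 0.19 and the family sum -0.23. The difference between the groups (0.38) ran from 0.25 to 0.58 under its 7 alternatives. In the random sampling model miR-429 passed at an adjusted p of 0.0451 with known-miRNA reads and 0.0384 with starts of 16 nucleotides. It also passed at 0.0388 with all 5′ ends and 0.0475 with totals without undetermined bases. For the GC correction another test was used, a normal test of the corrected log2 ratio over its counting error. That test takes the fitted slope as exact. Its adjusted p was 0.00768 for miR-429 and 0.0352 for miR-96, and miR-96 passed in no other setting. With the exact binomial test no call of a member changed. With an assumed coefficient of variation of 0.4 the adjusted p was 0.754 for miR-200a and 0.874 for miR-182. The causes were not tested. Leaving out a replicate was not possible with 1 library per age. No paired analysis was possible because no age had a second library. With few reads, depth limits all members except miR-200a and miR-182.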
